A study of Mus musculus with 7 samples.

Results

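The melanocyte pigment genes described here are 10 mouse genes, chosen by name from general knowledge and found as rows of the deposited count table: the melanin enzymes Tyr, Tyrp1 and Dct, the melanosome matrix proteins Pmel and Mlana, the melanosome transporters and receptor Slc45a2, Oca2 and Gpr143, and the transcription factors Mitf and Sox10. All 10 were found among the 57180 genes of the table. They were measured in regulatory T cells (Treg, a CD4 lineage that holds back immune responses) sorted from the tumour-infiltrating lymphocytes of mice that carried B16-F0, a transplanted mouse melanoma. All mice were Foxp3-Cre-YFP, a line in which the Foxp3 gene drives Cre recombinase and a yellow fluorescent protein, and every library carries the genotype label WT. The 2 groups were FOXP3-high (n = 3 libraries) and FOXP3-low (n = 4 libraries), and each library was bulk stranded mRNA with reads counted per gene. The sources used here do not give the sort gates, the age of the mice, the time after tumour transfer or any pooling of mice. Nothing in the labels says that each library is its own mouse, so p-values reflect the spread among these libraries alone, which may be technical.

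Melanin is made in melanosomes, organelles of pigment cells, from tyrosine. Tyr carries out the rate-limiting step, Dct and Tyrp1 act after it towards black-brown eumelanin, Pmel forms the fibrils on which pigment is laid down, and membrane transporters set the conditions inside the organelle. MITF, the master transcription factor of the lineage, acts with SOX10 on most of these genes. Treg cells are not known to make melanin, whereas B16 melanoma cells do. The counts do not show in which cells a transcript was made, and that origin was not tested. In bulk RNA, more cells of a type and more RNA per cell cannot be told apart.

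Promoter sequence was examined because the genes are known to share a regulator. The RefSeq table used (build GRCm38.p6) held promoters of 5 of the 10 genes, in 7 windows of 250 bases before a start site: 1 each for Dct, Tyr, Tyrp1 and Oca2, and 3 for Mitf. The search used CATGTG, TCATGTGC, which contains CATGTG and is known as the M-box bound by MITF, and CACGTG, each on both strands. Shown are the 3 windows that held TCATGTGC, those of the pigment enzymes, at chr14:118052247-118052496 (minus strand) for Dct, chr7:87493513-87493762 (minus strand) for Tyr and chr4:80833963-80834212 (plus strand) for Tyrp1. Capitals mark TCATGTGC, and in Dct also CACATG, which is CATGTG on the opposite strand.
Dct: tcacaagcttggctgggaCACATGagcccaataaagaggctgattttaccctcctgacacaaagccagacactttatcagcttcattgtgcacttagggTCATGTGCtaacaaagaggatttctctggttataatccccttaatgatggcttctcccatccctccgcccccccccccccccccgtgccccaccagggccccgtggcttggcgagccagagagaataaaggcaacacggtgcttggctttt
Tyr: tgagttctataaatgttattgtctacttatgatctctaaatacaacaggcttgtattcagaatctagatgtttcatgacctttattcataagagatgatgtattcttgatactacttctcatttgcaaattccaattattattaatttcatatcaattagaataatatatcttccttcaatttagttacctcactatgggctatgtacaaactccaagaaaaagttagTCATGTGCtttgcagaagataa
Tyrp1: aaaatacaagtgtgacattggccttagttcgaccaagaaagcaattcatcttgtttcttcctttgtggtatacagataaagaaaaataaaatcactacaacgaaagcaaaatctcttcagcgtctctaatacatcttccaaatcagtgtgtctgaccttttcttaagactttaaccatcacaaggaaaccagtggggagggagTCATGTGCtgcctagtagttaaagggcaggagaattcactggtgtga
TCATGTGC stood at -151 to -144 from the start site in Dct, at -22 to -15 in Tyr and at -47 to -40 in Tyrp1. The Oca2 window held CATGTG on the opposite strand, at -186 to -181. None of the 3 motifs was found in the 3 Mitf windows, which says only that these letters are not there. Among all 32851 promoter windows of this length, 12.25% held CATGTG, 0.764% held TCATGTGC and 6.02% held CACGTG. The genes and TCATGTGC were chosen with their link to MITF already known, so these shares are no test of enrichment. A match is a description of the sequence and not evidence of binding.

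FOXP3-low libraries held 12177761 to 14546999 counts and FOXP3-high libraries 9048771 to 11202260. Foxp3 itself, the gene that named the groups, was at 329, 396, 309 and 392 CPM in FOXP3-low replicates 1 to 4 and at 646, 806 and 638 CPM in FOXP3-high replicates 1 to 3, so the libraries matched their labels (CPM is the count scaled to the TMM-normalized library size). Of 15838 genes tested by edgeR's quasi-likelihood test, 3461 (21.9%) were called higher and 3899 (24.6%) lower in FOXP3-high at a Benjamini-Hochberg adjusted p under 0.05. When libraries were instead scaled to the summed counts of 17 T cell identity genes, 691 were called higher and 8346 lower, and the median log2 fold change of all tested genes moved from 0.01 to -0.50. FOXP3-low replicate 3 stood apart in markers of endothelial cells, fibroblasts and keratinocytes, and counts of list genes called that change without it are given both ways.

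All 9 pigment genes that could be tested were higher in FOXP3-high than in FOXP3-low, by 1.80-fold (Mitf) to 2.35-fold (Mlana). Their median log2 fold change was 1.10, against 0.01 over all tested genes. In all 9, every FOXP3-high library lay above every FOXP3-low library, a separation in that direction that 23.9% of all tested genes showed. The 9 genes each had at least 69 counts in every library, so none passed the filter on low counts through 1 group alone. All 9 were also called higher without FOXP3-low replicate 3, and without both libraries numbered 3. With the T cell scaling their direction held in 9 of 9 and 6 were called.

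**Figure D1:**
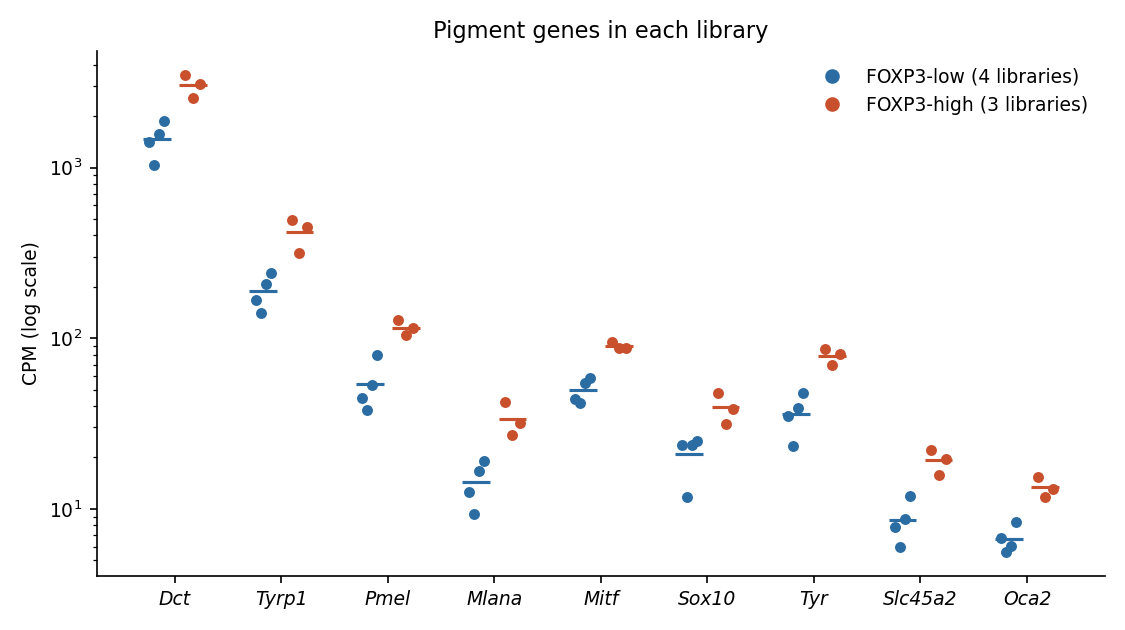
Level of each tested pigment gene in each library, in CPM on a log axis, with points for the 4 FOXP3-low and 3 FOXP3-high libraries and a bar at each group's mean. In all 9 genes the 3 FOXP3-high points sit above the 4 FOXP3-low points, and FOXP3-low replicate 2 is the lowest point of each.

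Of the enzymes, Dct (ENSMUSG00000022129, GRCm39 chr14:118250202-118289597, minus strand), which converts dopachrome to a eumelanin precursor, had the most counts, between 12708 and 40842 in a library. It was at 1408, 1031, 1582 and 1868 CPM in FOXP3-low replicates 1 to 4 and at 3504, 2565 and 3095 CPM in FOXP3-high replicates 1 to 3. The groups did not overlap, and the lowest library of each was its replicate 2. The log2 fold change was 1.05 ± 0.17 (SE), with an adjusted p of 0.000881 by edgeR's quasi-likelihood test. Tyrp1 (ENSMUSG00000005994, chr4:80752360-80769237, plus strand), an oxidase of eumelanin synthesis that also steadies tyrosinase, was at 168, 140, 207 and 240 CPM in FOXP3-low and at 493, 314 and 446 CPM in FOXP3-high. Its libraries kept the order seen for Dct, and it rose by 1.15 ± 0.19 on the log2 scale (edgeR adjusted p = 0.000869). Tyr (ENSMUSG00000004651, chr7:87073979-87142600, minus strand), the gene of tyrosinase, was at 35.0, 23.2, 38.9 and 47.7 CPM in FOXP3-low and at 86.8, 69.5 and 80.4 CPM in FOXP3-high. It rose by 1.13 ± 0.20 (edgeR adjusted p = 0.00116), again with no overlap between the groups.

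Both structural genes of the melanosome were higher in FOXP3-high. Pmel (ENSMUSG00000025359, chr10:128540064-128556107, plus strand), whose product forms the fibrils of the pigment granule, was at 44.5, 38.0, 53.2 and 80.1 CPM in FOXP3-low and at 127, 104 and 115 CPM in FOXP3-high. FOXP3-low replicate 4 was the nearest to the FOXP3-high libraries, and the log2 fold change was 1.10 ± 0.21 (edgeR adjusted p = 0.00226). Pmel overlaps Cdk2 and Dgka, which lie on the opposite strand and held 86.2% and 375% as many counts. The sources used here do not say whether counting used strand, so reads of these genes may be mixed. Cdk2, a cell cycle kinase, had 62.7 ± 8.40 CPM in the FOXP3-low and 73.1 ± 8.20 CPM in the FOXP3-high libraries (SD, n = 4 and n = 3; edgeR adjusted p = 0.132), and Dgka, a diacylglycerol kinase of T cells, rose from 187 ± 16.3 to 463 ± 44.5 CPM. Mlana (ENSMUSG00000024806, chr19:29675224-29685826, plus strand), a small melanosome membrane protein and T cell antigen of melanoma, was at 12.6, 9.33, 16.7 and 18.9 CPM in FOXP3-low and at 42.4, 27.1 and 31.9 CPM in FOXP3-high. Its rise of 1.23 ± 0.23 on the log2 scale was the largest of the 9 tested genes (edgeR adjusted p = 0.00177). Set against Dct it was 0.18 ± 0.30 higher, which was not called.

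Among the transporters and the receptor, 2 could be tested. Slc45a2 (ENSMUSG00000022243, chr15:11000807-11029319, plus strand), a transporter that raises melanosome pH, was at 7.78, 6.01, 8.67 and 11.9 CPM in FOXP3-low and at 22.1, 15.9 and 19.6 CPM in FOXP3-high. Oca2 (ENSMUSG00000030450, chr7:55889508-56186013, plus strand), a melanosome chloride channel, was at 6.73, 5.60, 6.08 and 8.35 CPM in FOXP3-low and at 15.4, 11.8 and 13.1 CPM in FOXP3-high. Both were separated between the groups in the way of the enzymes. Slc45a2 rose by 1.16 ± 0.21 (edgeR adjusted p = 0.00155) and Oca2 by 1.01 ± 0.17 (edgeR adjusted p = 0.00104) on the log2 scale. Gpr143 (ENSMUSG00000025333, chrX:151564917-151591642, plus strand), a receptor of the melanosome membrane, had 11 counts in all. These were 1, 0, 1 and 4 counts in FOXP3-low and 1, 2 and 2 counts in FOXP3-high, too few for a test. The 0 of FOXP3-low replicate 2 allows up to 0.243 CPM (3 counts), by counting error only, so a difference in Gpr143 was not detectable at this depth.

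The lineage factors had the lowest fold changes of the tested genes. Mitf (ENSMUSG00000035158, chr6:97784013-97995458, plus strand) is known in pigment cells and also in macrophages, osteoclasts and mast cells. It was at 44.2, 42.0, 54.6 and 58.4 CPM in FOXP3-low and at 94.9, 87.2 and 87.2 CPM in FOXP3-high, a rise of 0.85 ± 0.11 on the log2 scale (edgeR adjusted p = 0.000238). Its FOXP3-high libraries differed by 1.09 times from lowest to highest, less than those of Dct at 1.37 times. Sox10 (ENSMUSG00000033006, chr15:79039108-79049440, minus strand), a neural crest factor that acts upstream of Mitf, was at 23.7, 11.8, 23.8 and 24.9 CPM in FOXP3-low and at 48.0, 31.3 and 38.6 CPM in FOXP3-high. In FOXP3-low 3 libraries were close together and replicate 2 was low. Sox10 rose by 0.91 ± 0.24 (edgeR adjusted p = 0.0115). Without FOXP3-high replicate 1 its log2 fold change was 0.71 and it was no longer called (edgeR adjusted p = 0.0699).

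Within each group the genes moved together from library to library. Among the FOXP3-low libraries, all 9 tested genes were lowest in replicate 2 and highest in replicate 4. Among the FOXP3-high libraries, all 9 were highest in replicate 1 and lowest in replicate 2, where Mitf was level with replicate 3 (87.2 CPM in each). The share of all tested genes with this order was not counted. The summed level of the 10 genes was 1750, 1307, 1990.5 and 2359 CPM in FOXP3-low and 4433, 3226 and 3926 CPM in FOXP3-high, with means of 1852 ± 441 and 3862 ± 606 CPM and a ratio of 2.09. The pigment order was not that of Foxp3, since FOXP3-high replicate 2 had the highest Foxp3 and the lowest pigment sum of its group. As a share of all counts in a library, the 10 genes took 0.182 ± 0.0437% in FOXP3-low (SD, n = 4) and 0.398 ± 0.0711% in FOXP3-high (SD, n = 3).

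Dct made up most of the pigment counts in both groups. Its share of the counts of the 10 genes was 79.5 ± 0.667% for FOXP3-low and 79.1 ± 0.340% for FOXP3-high, and that of Tyrp1 was 10.2 ± 0.469% and 10.7 ± 0.867%. Shares of counts favour long transcripts, and per kilobase of gene length Dct took 66.1% and 65.1%. Mitf took 2.74 ± 0.335% of the counts for FOXP3-low and 2.35 ± 0.304% for FOXP3-high, and Mlana took 0.769% and 0.870%. Each gene was then related to Dct. Per 1000 Dct counts, Tyrp1 was at 129 ± 6.88 in FOXP3-low and 136 ± 11.5 in FOXP3-high, Pmel at 36.2 ± 4.92 and 38.0 ± 2.35, and Tyr at 24.4 ± 1.30 and 26.0 ± 1.17. Mitf was at 34.5 ± 4.41 and 29.8 ± 3.72, Sox10 at 14.1 ± 2.32 and 12.8 ± 0.800, and Mlana at 9.67 ± 0.810 and 10.99 ± 0.963. The libraries of the groups overlapped in all 8 ratios.

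**Figure D2:**
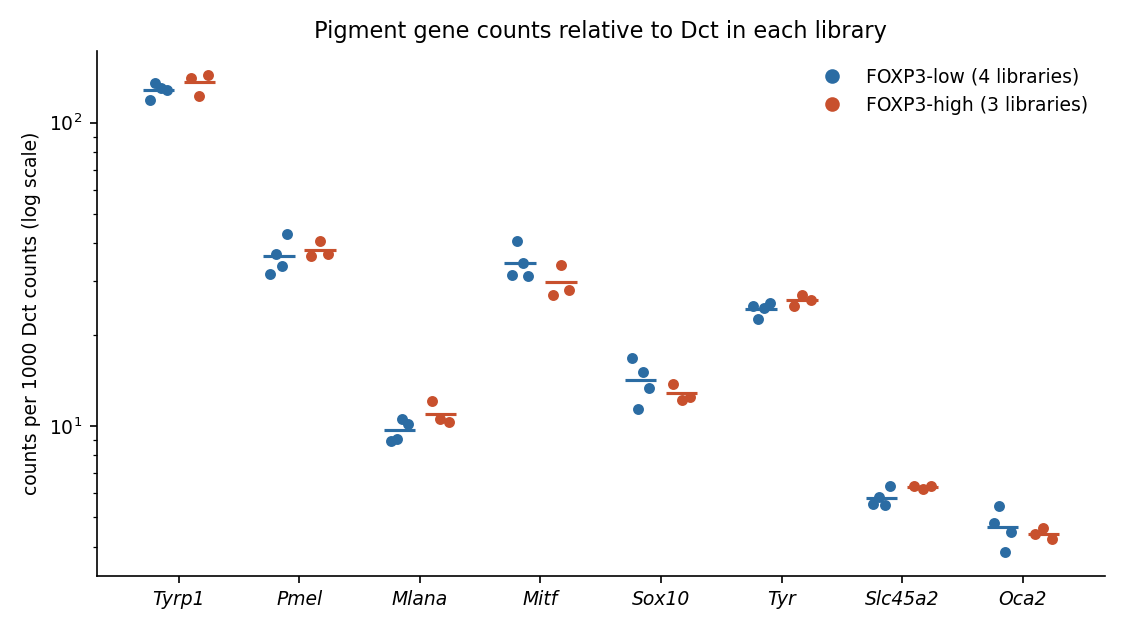
Counts of each pigment gene per 1000 Dct counts in each library, on a log axis, with a bar at each group's mean. The FOXP3-low and FOXP3-high points overlap for all 8 genes, for example Tyrp1 at means of 129 and 136.

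In the same edgeR fit scaled to Dct counts, log2 fold changes of the 8 genes ran from -0.21 (Mitf) to 0.18 (Mlana), with standard errors of 0.293 to 0.335. None of the 8 was called by edgeR, the one tool run on this scale, and 0 had an unadjusted p under 0.05. The standard errors are wide and much alike across the 8 genes. Ratios such as that of Tyrp1 varied less from library to library (129 ± 6.88 and 136 ± 11.5 per 1000 Dct counts). A call needs a difference well above the error, so small differences in ratio were not detectable. The lack of calls does not show that the ratios were equal. Foxp3 was not called on this scale either (-0.12, edgeR adjusted p = 0.707). Over all genes on this scale, 0.335% of 15837 were called higher and 71.7% lower, with a median log2 fold change of -1.08. Relative to the 17 T cell identity genes, the median log2 fold change of the 9 genes was 0.59, against -0.50 over all genes, and 6 of the 9 were called higher by edgeR against 4.36% of all genes. These were Mlana (0.72), Slc45a2 (0.66), Tyrp1 (0.64), Tyr (0.61), Dct (0.54) and Oca2 (0.50), at adjusted p between 0.0350 and 0.0480. Pmel (0.59), Sox10 (0.39) and Mitf (0.33) did not pass, at adjusted p of 0.0526, 0.256 and 0.0760. The calls on this scale depended on single libraries, although every fold stayed above 0 when 1 was left out (Tyr 0.43 to 0.74, Dct 0.39 to 0.70, Sox10 0.18 to 0.57). By edgeR 0 of the 9 were called without FOXP3-low replicate 1, without FOXP3-high replicate 1 or without FOXP3-high replicate 3 (2, 0 and 1 with an unadjusted p under 0.05), and 1 was called without FOXP3-low replicate 2. The ratio of the pigment sum to the T cell sum was 0.357 to 0.654 across FOXP3-low libraries and 0.597 to 0.907 across FOXP3-high ones, so the groups overlapped.

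**Figure D3:**
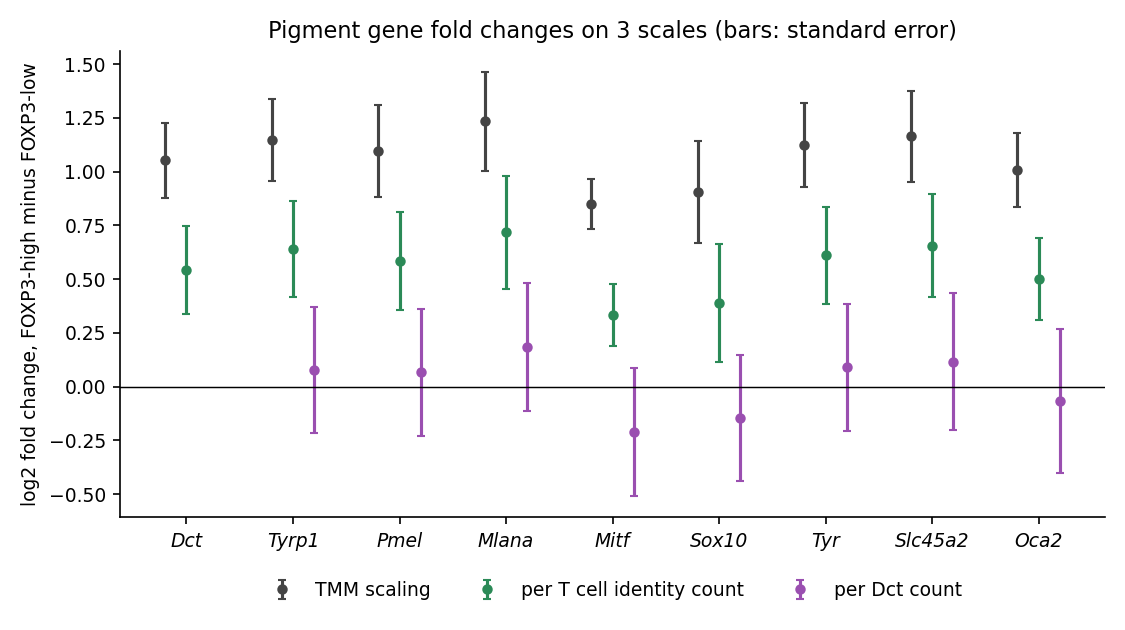
Log2 fold change of each tested pigment gene, FOXP3-high minus FOXP3-low, with TMM scaling, per T cell identity count and per Dct count, and bars of 1 standard error. Values lie between 0.85 and 1.23 with TMM, between 0.33 and 0.72 per T cell identity count, and between -0.21 and 0.18 per Dct count.

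Levels were compared between genes per kilobase of the deposited gene length. Dct was highest, with 250 ± 59.4 CPM per kilobase for FOXP3-low against 518 ± 79.9 for FOXP3-high, and ranked 104 of 15838 genes by its mean over all libraries. Foxp3, for comparison, was at 77.9 and 152 CPM per kilobase. Tyrp1 followed at 66.7 and 148, Pmel at 23.5 and 50.3, and Mlana at 13.6 and 31.98 CPM per kilobase. Mitf was at 8.04 and 14.5, Sox10 at 6.89 and 12.9, and Tyr at 5.09 and 11.1 CPM per kilobase, and the ranges of Mitf and Sox10, and of Sox10 and Tyr, overlapped in both groups. Slc45a2 was at 2.88 and 6.44, Oca2 at 1.69 and 3.39, and Gpr143 at 0.0608 and 0.0829 CPM per kilobase. The order was the same in both groups, although in FOXP3-low the ranges of Pmel and Mlana, Mlana and Mitf, Tyr and Slc45a2, and Slc45a2 and Oca2 overlapped too. Dct thus stood far above Tyr in level per length, while their differences between the groups were 2.07-fold and 2.18-fold.

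Markers of other cells were summed in the same libraries. The 17 T cell identity genes summed to 3187 to 3664 CPM in FOXP3-low and to 4662 to 5400 CPM in FOXP3-high. Of the 17, 16 were called higher (15 without FOXP3-low replicate 3). Bcl11b, a T cell transcription factor, rose from 162 ± 5.72 to 354 ± 23.1 CPM. The signalling genes Lat (79.3 to 140 CPM) and Cd6 (143 to 217 CPM) rose as well. The 15 macrophage and monocyte genes went the other way, from 2048 to 2618 CPM in FOXP3-low to 532 to 573 CPM in FOXP3-high. Of these, 14 were called lower, among them Csf1r (88.5 to 5.74 CPM), Cd68 (58.6 to 5.90 CPM), Lyz2 (552 to 27.9 CPM) and the integrin Itgam (542 to 25.1 CPM). Itgam overlaps Gm49368 on its own strand, which held 24.2% as many counts. The one gene called higher was Ccr2, a chemokine receptor that Treg cells also carry, from 226 to 449 CPM; it is named after its value was seen. The pigment sum was 0.541 to 1.15 times the macrophage sum in FOXP3-low and 5.63 to 8.33 times in FOXP3-high. Ccr2 made up most of the macrophage sum in FOXP3-high (a mean of 449 of 555 CPM). The sum and its ratios therefore understate the fall of the 14 genes called lower. The part of these marker differences in the pigment difference was not tested.

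**Figure D4:**
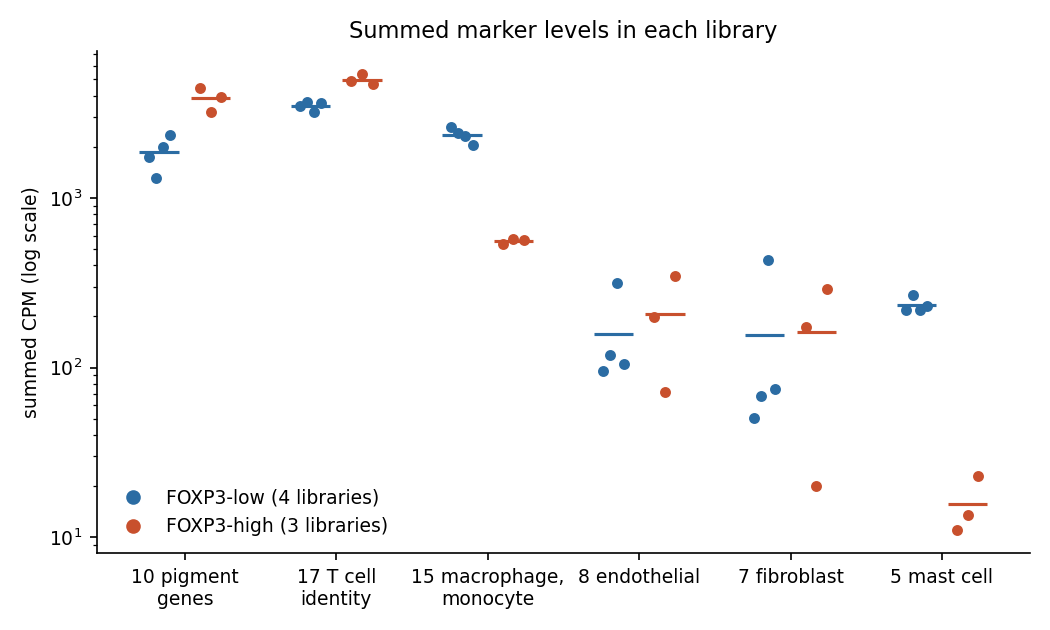
Summed CPM of the 10 pigment genes and of 5 marker lists in each library, on a log axis, with a bar at each group's mean. The pigment sum was higher in every FOXP3-high library (3226 to 4433 CPM) than in every FOXP3-low library (1307 to 2359 CPM). The macrophage and mast cell lists were lower, and the endothelial and fibroblast lists overlapped. The mast cell sum was nearly all Hdc, the only gene of that list that could be tested.

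Endothelial and fibroblast markers, as signs of tumour stroma, varied widely within both groups. Of the 8 endothelial genes 0 were called by edgeR, by DESeq2 or by limma-voom, and 0 had an unadjusted p under 0.05. Their sum was 95.8 to 314 CPM in FOXP3-low and 71.4 to 348 CPM in FOXP3-high. Pecam1 was at 74.6 ± 31.9 and 105 ± 35.4 CPM, and Cdh5 at 36.6 ± 35.7 and 43.5 ± 41.9 CPM. Without FOXP3-low replicate 3 Pecam1 was called higher (log2 fold change 0.84, edgeR adjusted p = 0.00987), as it was without both libraries numbered 3 (0.59, edgeR adjusted p = 0.0140). Of the 5 tested fibroblast genes 0 were called by the 3 tools. By edgeR 0 had an unadjusted p under 0.05, or 1 without FOXP3-low replicate 3, where 0 were called. Their sums were 50.3 to 432 CPM in FOXP3-low and 20.1 to 292 CPM in FOXP3-high. Col3a1 was at 80.3 ± 98.9 and 77.9 ± 69.1 CPM and Col1a2 at 34.9 ± 35.8 and 40.2 ± 30.6 CPM. Of 5 keratinocyte genes, Dsp could be tested, at 5.24 ± 4.57 and 4.93 ± 0.439 CPM, and it was not called. In the Schwann cell list 2 of 3 tested genes were higher, Mbp (31.7 ± 2.14 to 48.6 ± 3.60 CPM) and Cdh19 (5.38 ± 2.15 to 11.1 ± 1.62 CPM), while Foxd3 had 0 counts in every library. Without FOXP3-high replicate 1 Cdh19 was not called (0.91, edgeR adjusted p = 0.0818). With the T cell scaling neither was called, Mbp at 0.09 and Cdh19 at 0.52 (edgeR adjusted p = 0.449 and 0.226). Of the 5 mast cell genes, Hdc, the histamine-forming enzyme, fell from 233 ± 24.2 to 15.7 ± 6.32 CPM and made up nearly all of the list, while Fcer1a had 0 counts in every library.

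The wider pigment pathway was read from 7 lists written from general knowledge. Counts with TMM are to be read against the 21.9% of all tested genes called higher and 24.6% called lower. With the T cell scaling, where most genes were called lower, the counts of higher calls fell in all 7 lists. Counts on that scale are to be read against 691 (4.36%) of 15838 genes called higher and 8346 called lower. In the melanosome transport list 3 of 7 tested genes were higher and 2 lower, with a median log2 fold change of 0.13, but 0 were higher and 4 lower with the T cell scaling. Rab38, a small GTPase that carries Tyrp1 to melanosomes, rose from 9.18 ± 1.85 to 19.1 ± 3.35 CPM (1.06 ± 0.18 on the log2 scale), and Sytl2, a vesicle-tethering protein, rose from 151 to 208 CPM (0.46 ± 0.06). Rab32, a relative of Rab38, fell by 1.93 ± 0.16 from 14.9 to 3.87 CPM, and Mreg, a melanosome transfer protein, fell by 0.90 ± 0.15 from 10.6 to 5.69 CPM. Mlph, the adaptor between melanosomes and their motor, is the remaining gene called higher (36.6 ± 9.75 to 80.6 ± 17.3 CPM) and is named after its value was seen. With the T cell scaling Sytl2 was at -0.06 and Rab38 at 0.54, neither of them called (edgeR adjusted p = 0.496 and 0.0567).

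The complexes of melanosome biogenesis, which most cells use for lysosome-related organelles, showed small changes. Of 20 tested genes 4 were higher and 3 lower, against 21.9% and 24.6% of all genes, with a median log2 fold change of -0.02. So few genes cannot set these shares apart from those of all genes. The higher calls depended on single libraries: 1 was left without FOXP3-low replicate 3, 2 without FOXP3-high replicate 2 and 0 without FOXP3-high replicate 1 (edgeR, 5 with an unadjusted p under 0.05 in either direction), while 3 were lower in each. Without both libraries numbered 3 there were 3 higher and 1 lower, with the DESeq2 Wald test 2 higher, without the filter 1 higher, and with the T cell scaling 0 higher and 14 lower. The AP-3 subunits Ap3b1 (470 to 374 CPM) and Ap3s1 (47.2 to 39.0 CPM) fell by 0.33 ± 0.05 and 0.28 ± 0.07, and Ap3d1 rose by 0.19 ± 0.05 (467 to 533 CPM) with TMM but was called lower with the T cell scaling, at -0.33, and was not called without FOXP3-high replicate 1 (0.15, edgeR adjusted p = 0.0818). Hps6, of the BLOC-2 complex, fell by 0.42 ± 0.11 from 14.4 to 10.8 CPM, and it overlaps 4930505N22Rik, which held 10.5% as many counts. Among 8 other melanosome proteins 3 were higher and 3 lower, or 3 and 2 without FOXP3-low replicate 3, and 1 and 4 with the T cell scaling. Gpnmb, a relative of Pmel that macrophages also make, rose from 124 ± 23.6 to 223 ± 40.5 CPM (0.86, and 0.35 with the T cell scaling, where it was not called, edgeR adjusted p = 0.159), and Tspan10 rose from 6.28 ± 1.38 to 15.8 ± 2.11 CPM. Slc7a11, the cystine importer, fell by 4.15 ± 0.18 on the log2 scale, from 61.6 ± 7.87 to 3.43 ± 0.991 CPM, and the cysteine transporter Mfsd12 fell by 1.53 ± 0.17, from 13.8 to 4.75 CPM. Mfsd12 overlaps Fzr1 and Tektip1 on the opposite strand, with 346% and 32.4% as many counts. These falls went with the 4.22 times lower macrophage sum, most of which was Ccr2 in FOXP3-high. That sum's part in these falls was not tested.

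Of 5 tested signals and receptors of melanocytes 1 was higher, Mc1r, the melanocortin receptor, at 4.41 ± 1.66 and 7.84 ± 1.43 CPM (0.83 ± 0.28, edgeR adjusted p = 0.0342). Its groups overlapped, and it was not called without FOXP3-low replicate 1, 2 or 3 or without FOXP3-high replicate 1 or 3 (log2 fold change 0.68 to 0.82, adjusted p up to 0.142), nor with the T cell scaling (0.33, edgeR adjusted p = 0.374). Of 12 tested transcription factors of the lineage 6 were higher and 2 lower, with a median of 0.64. There were 4 higher without FOXP3-high replicate 1 or 3, and 2 higher and 5 lower with the T cell scaling. Pax3, a neural crest factor upstream of Mitf, rose by 1.37 ± 0.15, from 17.8 ± 3.55 to 46.2 ± 6.52 CPM. That estimate was above those of the 9 pigment genes, but within the error of Mlana (1.23 ± 0.23). Set against Dct, Pax3 was 0.31 ± 0.29 higher, which was not called (edgeR adjusted p = 0.326). Lef1, which T cells also use, rose by 1.10 ± 0.09 from 35.5 to 76.4 CPM. Zeb2, which myeloid cells also use, fell by 2.13 ± 0.12, from 385 ± 28.2 to 88.0 ± 17.3 CPM. Tfec, a relative of Mitf found in macrophages, had 3.37 ± 0.709 CPM in the FOXP3-low and 0.165 ± 0.0710 CPM in the FOXP3-high libraries and was called lower.

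Of 8 tested MITF targets outside pigmentation 5 were higher and 1 lower (3 and 1 with the T cell scaling), with a median of 0.64, and Birc7 had 0 counts throughout. Trpm1, the melastatin channel, rose by 1.13 ± 0.19, from 36.2 ± 9.46 to 79.2 ± 12.8 CPM, and the survival gene Bcl2, which T cells also use, rose by 0.98 ± 0.09, from 21.5 to 42.5 CPM. Bcl2 overlaps D630008O14Rik on the opposite strand, with 22.7% as many counts. Dicer1, a nuclease of microRNA processing, rose by 0.40 ± 0.07 with TMM, from 74.2 to 98.1 CPM, but was at -0.11 and not called with the T cell scaling. Asah1, a lysosomal ceramidase, fell by 0.99 ± 0.15, from 41.8 to 21.03 CPM. In the list of melanoma and neural crest surface genes 5 of 10 tested were higher and 2 lower, with a median of 0.44. There were 3 higher without FOXP3-low replicate 1, 2 or 3 or FOXP3-high replicate 1, and 1 higher with the T cell scaling, with 2 lower in each. L1cam rose from 36.3 ± 3.64 to 80.6 ± 5.04 CPM and S100b from 3.40 ± 1.30 to 7.45 ± 0.562 CPM (not called with the T cell scaling, edgeR adjusted p = 0.0900), while Alcam fell from 59.5 ± 4.89 to 27.0 ± 3.13 CPM and Ngfr from 3.02 ± 0.786 to 0.380 ± 0.243 CPM. L1cam overlaps Arhgap4 on its own strand and Avpr2 on the opposite one, with 390% and 16.7% as many counts, and S100b overlaps Dip2a with 356%.

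**Figure D5:**
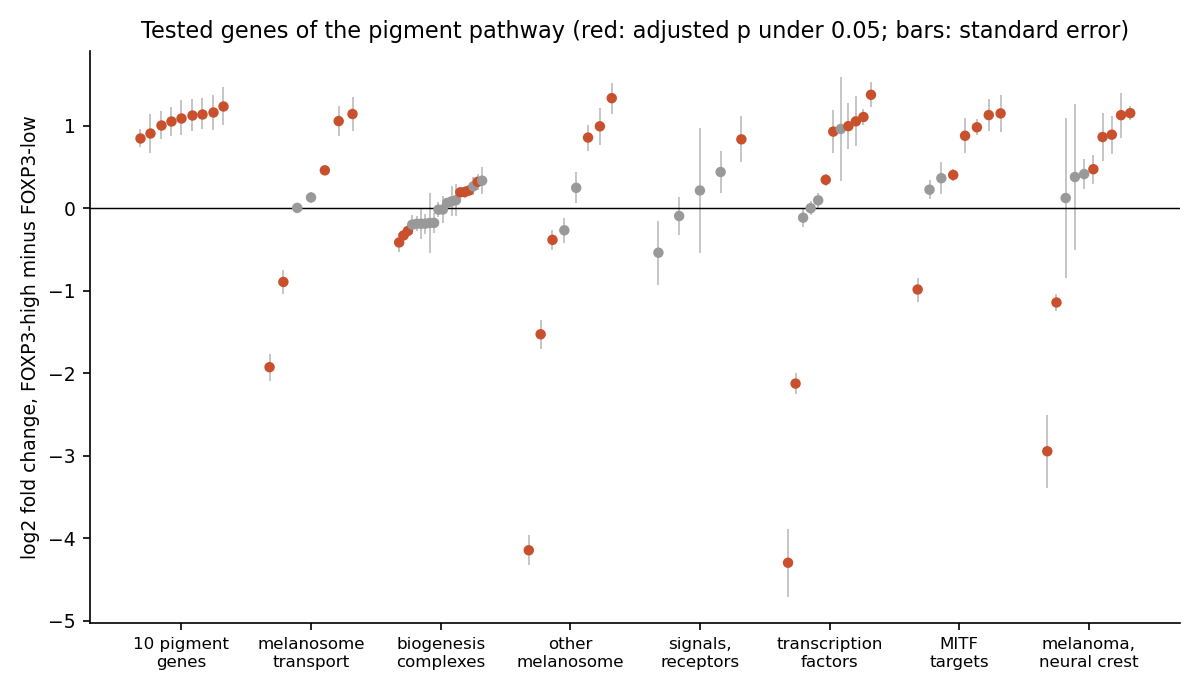
Log2 fold change, FOXP3-high minus FOXP3-low, of each tested gene of the pigment group and of 7 pathway lists, with bars of 1 standard error and red points at an adjusted p under 0.05. The 9 tested pigment genes lie between 0.85 and 1.23, whereas the other lists spread to both sides of 0, down to -4.30 for Tfec.

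The genes whose profile was most like the summed pigment genes were ranked by the root mean square difference of log2 CPM over the 7 libraries, each centred on its own mean, among 9627 other tested genes whose mean was 5 CPM or more. The nearest were Rab38 (0.0680), Trpm1 (0.0739), Slc6a17 (0.0798), Bhlhe41 (0.104) and Fam174b (0.109), and then Gsta1 (0.110), Gsta2 (0.113), Met (0.116), Ppargc1a (0.122) and Apol9a (0.123). Rab38 was at 8.27, 7.06, 10.3 and 11.1 CPM in FOXP3-low and at 22.5, 15.8 and 18.9 CPM in FOXP3-high, with the same lowest and highest library in each group as Dct. Of the pigment genes themselves, Tyr (0.0790), Slc45a2 (0.0813) and Tyrp1 (0.0847) were as near, while Mitf (0.183) and Sox10 (0.184) had 40 and 42 other genes nearer than they were. The sum is mostly Dct, so likeness to it is close to likeness to Dct. Gsta1, Gsta2 and Apol9a have near-identical paralogs and their counts are uncertain, and Bhlhe41 overlaps Gm43909 on the opposite strand with 17.9% as many counts.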

How the data were processed

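RNA was measured in 7 libraries, and groups came from the sample titles. The deposited table holds whole-number counts per gene and gene length in bases, made by the authors without normalization. The submitters' processing notes name fastp 0.23.4, STAR 2.5.3a, featureCounts and the builds GRCh38 and GRCm39; file coordinates are given as GRCm39. The sources used here do not state the strand setting or whether molecular identifiers were used. All columns of sample values were mapped.

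The main test was that of edgeR 4.0.16 in R 4.3.3 (filterByExpr by group with a minimum count of 10, TMM, glmQLFit and glmQLFTest, Benjamini-Hochberg over 15838 genes at 0.05). The same fit was scaled to Dct counts, and to the summed counts of 17 T cell identity genes. A standard error is the absolute log2 fold change over the square root of F. Replicates of a group differed beyond counting noise (chi-square per gene of 3.98 to 12.2). The members and lists were chosen with earlier results of these data known. Named genes are the members, Foxp3, up to 4 genes per list with the smallest adjusted p under 0.05 (the 2 highest by CPM where none passed), and the 10 nearest profiles, without predicted genes or pseudogenes. Asip, of the signals list, was not analysed here, and 1 named marker is not reported here.

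Alternatives were DESeq2 1.42.0 size factors and Wald test, upper quartile factors, total counts, T cell scaling, no filter, at least 50 counts in each of 3 libraries, limma-voom (limma 3.58.1), leaving out each library or both numbered 3, a replicate block, and other length and share scales. On simulated counts for the 15838 genes of this comparison, 100 genes were changed 2-fold and 100 were changed 4-fold. Of these changes 55% and 85% were recovered, and 7.89% of calls were false. Far more genes were called in the data, so these rates need not hold there.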

Additional observations from a re-analysis of the deposited data

Results flagged for a closer look

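Of 33 values examined for a library far from the rest of its group, 6 met Dixon's 95% limit, where chance alone marks about 1 group in 20. Only FOXP3-low, with 4 libraries, was examined. One concerned a pigment gene: Sox10 was at 11.8 CPM in FOXP3-low replicate 2, and the nearest library was at 23.7 CPM. Without that library Sox10 was still called higher (log2 fold change 0.73, edgeR adjusted p = 0.00501).

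The other 5 concerned FOXP3-low replicate 3, which was the highest of its group in each. Its summed level was 44.5 CPM for melanocyte signals and receptors (nearest 29.3 CPM), 197.8 CPM for melanoma and neural crest surface genes (nearest 150.8 CPM), 313.9 CPM for endothelial markers (nearest 117.9 CPM), 432.4 CPM for fibroblast markers (nearest 74.5 CPM) and 23.9 CPM for keratinocyte markers (nearest 5.01 CPM). The pigment sum of that library was 1990.5 CPM, inside the range of its group.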

How the results depend on the processing

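All 9 tested pigment genes were called higher under every alternative with 2 exceptions: 8 without FOXP3-high replicate 1 (Sox10 lost) and 6 with the T cell scaling. Calls over all genes were 7360, and 6392 to 9037 under the alternatives. Relative to Dct 0 pigment genes were called in every alternative run on that scale. Relative to T cell identity genes the count ran from 0 to 7 when single libraries were left out. Dct's share of the pigment counts in FOXP3-high was 79.1% by counts and 65.1% per kilobase. Ranks per length were the same for 10 of 10 genes with the longest GENCODE M21 transcript.

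The labels give no shared animal or batch, so the main fit had no replicate block. Same-numbered deviations correlated at -0.09, 0.15 and 0.60, and the 0.60 of the libraries numbered 3 was the highest of all pairs. FOXP3-low replicate 1 correlated best with FOXP3-high replicate 2 (0.39). With so few libraries this check cannot settle whether same-numbered libraries are paired. With a replicate block all 9 pigment genes were called, 7029 genes in all, and 9 relative to T cell identity genes. Pecam1 was also called higher (0.43, edgeR adjusted p = 0.0477).

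Of 1154 further values under an alternative, 1069 kept direction and call, 52 lost the call, 10 gained it and 23 changed sign. Sign changed with the T cell scaling in Sytl2 (-0.056), Ap3d1 (-0.33), Dicer1 (-0.11), Pecam1 (-0.019), Cdh5 (-0.26) and Col1a2 (-0.32), and for Col3a1 with upper quartile factors (0.021), total counts (0.043) and without both libraries numbered 3 (0.60). Cdh5 was at -0.60 with limma-voom and -0.17 with the replicate block, and Dsp at 0.21 with limma-voom, 0.20 with the replicate block and 0.69 without both libraries numbered 3. With single libraries left out, ranges that crossed 0 were -0.65 to 1.21 for Cdh5, -0.44 to 1.22 for Col1a2, -0.79 to 1.33 for Col3a1, -0.36 to 0.69 for Dsp, and -0.15 to 0.016 for Oca2 relative to Dct. The causes were not tested. Depth limits Gpr143.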
